A study of Saccharomyces cerevisiae with 24 samples.

Results

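The 36 genes described here encode the core DNA replication machinery of budding yeast, the proteins that mark origins, unwind DNA, copy it and join the new strands. They were taken as a list of named subunits, and a probe set was accepted where the probe table gave that gene as its single symbol. All 36 were found among 5656 genes with such a probe set, 35 of them with 1 probe set and POL2 with 9, of which the brightest on average was used. 34 of the 36 passed the filter on dim signals and were among the 5172 genes tested, while CDC6 and ORC6 did not pass it.

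Replication starts where the origin recognition complex (ORC) sits on DNA and, with Cdc6, loads the ring-shaped MCM helicase in G1 phase. In S phase, Cdc45 and the GINS complex join MCM to form the active helicase, DNA polymerase alpha-primase starts each strand, and polymerases epsilon and delta extend the leading and the lagging strand. Replication factor C (RFC) loads the sliding clamp, replication protein A (RPA) coats exposed single-stranded DNA, and the ligase Cdc9 seals the nicks. RPA-coated DNA is also the signal that the checkpoint kinase Mec1 reads when forks stall, and in budding yeast many of these genes are transcribed with the cell cycle, late in G1 or around mitosis.

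Transcript levels were measured on 24 one-colour Affymetrix S98 arrays of the budding yeast strain BY4730, exposed for 120 min to 1 of 5 agents or left as controls. 3 arrays followed bleomycin, which breaks DNA strands (0.15, 0.1 and 0.15 U/ml in replicates 1, 2 and 3), 3 came after methyl methanesulfonate (MMS), an alkylating agent that puts methyl groups on DNA bases (0.12%, 0.12% and 0.14%), and 2 followed cisplatin, which crosslinks DNA (500 and 650 ug, with no volume given). NaCl (10%, 8% and 9%; 3 arrays) and ethanol (15%; 2 arrays) stood for stresses without a direct action on DNA. 11 control arrays, each from another day, came from cells given the solvent DMSO, meant for the DNA-damaging agents, or kept in medium, meant for NaCl and ethanol, and the labels do not tell which control array is which. For cisplatin and NaCl the protocol text and the titles disagree on the dose, so those doses are uncertain.

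Each treated array was set against the control array of its day: control replicates 2, 4 and 5 for bleomycin, 10, 11 and 9 for MMS, 1 and 5 for cisplatin, 2, 4 and 3 for NaCl, and 6 and 7 for ethanol. Bleomycin shares control replicates 2 and 4 with NaCl and control replicate 5 with cisplatin. The year in the title of ethanol replicate 1 is not that of its control, and the same day was assumed. The labels do not say that arrays came from separate cultures, so p-values measure only the spread between arrays, which may be technical. Values are log2 signals, quantile-normalized between arrays, and a fold change is a difference of these values. A gene rose or fell where limma, fitted to all 5172 genes with the day as a block, gave a Benjamini-Hochberg adjusted p under 0.05. Bleomycin shares days with NaCl and cisplatin, so in that fit the change of each of these agents also draws on arrays of the others. A change from the fit need not be the mean of the same-day differences. In these bulk extracts, fewer cells at one stage of the cell cycle and less RNA per cell cannot be told apart.

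In the 11 control arrays the a-factor genes MFA1 and MFA2 averaged 12.3 ± 0.4 (SD) and 12.0 ± 0.286 on the log2 scale, while STE3, the receptor made by alpha cells, averaged 3.75 ± 0.219. URA3 (3.43 ± 0.244) and MET17 (3.89 ± 0.214), which are deleted in this strain, were dim on a scale that ran from 1.42 to 14.4, while LEU2, deleted as well, averaged 5.68 ± 0.399 on its brightest probe set. Control probe sets along the actin transcript ACT1 were not equally bright on all arrays. The 5′ signal fell into a low class (under 7.5, with 6 control arrays) and a high class (with 5). All 3 MMS arrays were in the high class and their 3 control arrays in the low class, a mean same-day difference of 3.37. The 3 NaCl arrays (mean difference -2.12) and the 2 ethanol arrays (-0.95) were all in the low class, and bleomycin (-0.01) and cisplatin (-2.76) had arrays in both. NaCl replicates 2 and 3 and control replicate 11 also had a weak ACT1 3′ signal, under 10, and are called the low-3′ arrays. What part the state of the RNA had in any result below was not tested. MMS results within the high class are given for the members whose call differed there or that are described at length. Signs could differ there without a call, as for MCM3 (-0.22), PSF3 (0.14) and CDC45 (0.19).

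Across the 5 agents, MMS moved the most members upward and NaCl the most downward. With MMS, 13 of the 34 tested members rose and 2 fell, where 33.6% of all tested genes rose and 17% fell. With NaCl 4 rose and 10 fell (13.9% and 37.8% of all genes), and with ethanol 1 rose and none fell (3.89% and 1.22%). With bleomycin (1.49% and 0.406%) and cisplatin (0.329% and 0.135%) none passed limma's adjusted p, although 1 and 3 members had an unadjusted p under 0.05 (2.94% and 8.82%, against 10.3% and 12.6% of all genes). Read against those shares of all genes, the counts show nothing about the machinery as a whole, and the members' median log2 change (0.23 with MMS, -0.27 with NaCl) was less than that of all genes in size (0.30 and -0.45). The results below are about single subunits.

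**Figure D1:**
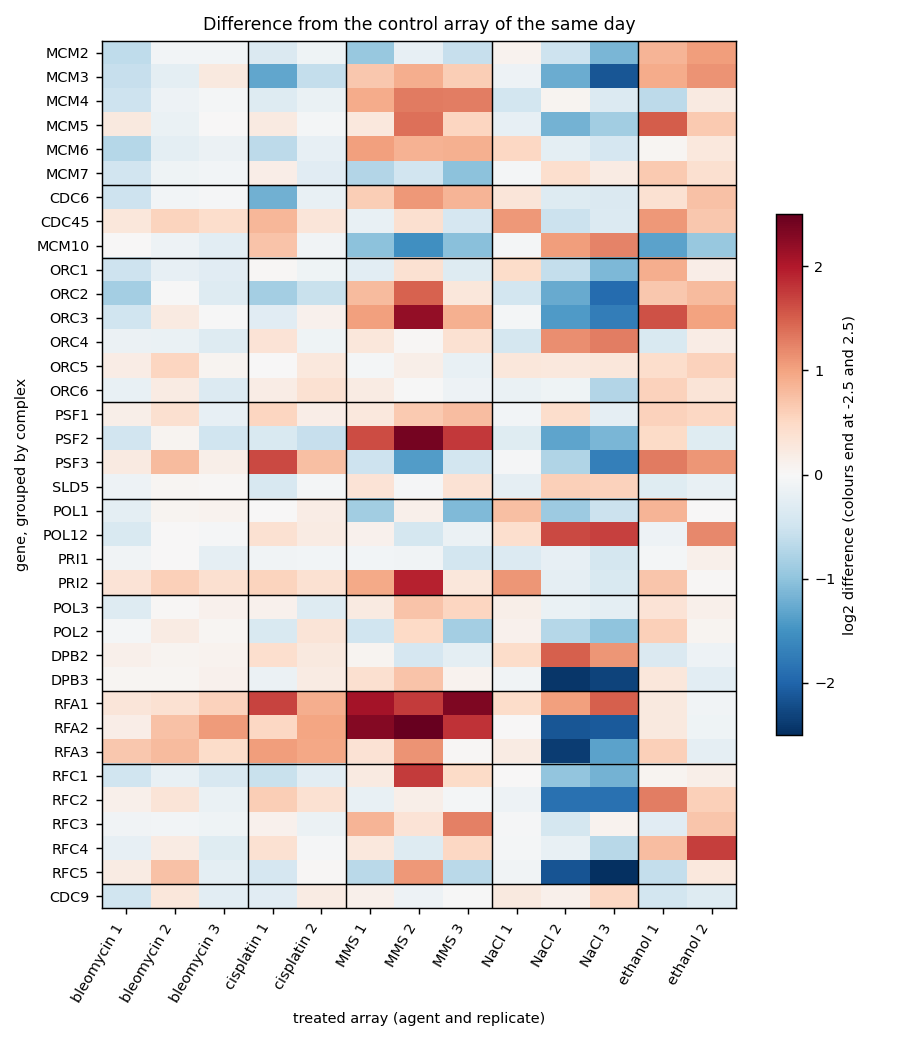
Difference of each treated array from the control array of its day (log2, colour) for the 36 genes, in rows grouped by complex, and the 13 treated arrays, in columns by agent. The MMS columns hold the strong rises of RFA1, RFA2 and PSF2, and NaCl replicates 2 and 3 hold deep falls that NaCl replicate 1 lacks.

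RPA is the trimer of Rfa1, the large DNA-binding subunit, Rfa2, the subunit that checkpoint kinases phosphorylate, and Rfa3, the small subunit. RFA1 read 9.91, 9.75 and 10.07 in the 3 MMS arrays, against a lowest, median and highest control of 7.01, 7.61 and 8.19. It read 8.71 and 8.24 with cisplatin, 7.84, 7.99 and 7.89 with bleomycin, 8.02, 8.63 and 8.74 with NaCl and 8.29 and 8.11 with ethanol. The MMS and cisplatin arrays were above all 11 controls, and MMS above every other array too, while the bleomycin arrays lay inside the control range. Against the control of its day RFA1 was higher by 2.08, 1.75 and 2.34 with MMS. The MMS rise was 4.16-fold (log2 2.06 ± 0.277 SE, limma adjusted p = 9.96e-05), and RFA1 also rose with NaCl, by 1.03 ± 0.268 (adjusted p = 0.00977). With cisplatin it was 1.25 ± 0.323 higher (adjusted p = 0.148) and with bleomycin 0.57 ± 0.263 (adjusted p = 0.496), neither passing the test.

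The MMS rise of RFA1 was as large within the high ACT1 5′ class: 2.51 ± 0.146 (adjusted p = 1.03e-09). There the 3 MMS arrays were set against the 5 control arrays of that class without the day. Those control arrays are from April and October, and the MMS arrays from July and August. Agent and date cannot be told apart in that fit. RFA1 was 1.49 ± 0.382 higher with MMS than with bleomycin (adjusted p = 0.0106), and 1.81 ± 0.183 higher within the high class (adjusted p = 9.67e-07). The NaCl rise of RFA1 passed the test neither under median scaling nor on the deposited values, and it was 0.58 within the low class (adjusted p = 0.189).

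RFA2 read 7.91, 8.26 and 7.92 with MMS, 7.86, 7.97 and 8.29 with bleomycin and 7.87 and 8.20 with cisplatin. The 11 controls ran from 5.11 through a median of 7.22 to 7.69, and this is the largest control spread of any member (SD 1.00). NaCl gave 7.70, 5.10 and 5.32, and ethanol 5.81 and 5.37. The 8 arrays of DNA-damaging agents were close together, while the controls ran from 7.22 to 7.63 in the high ACT1 class and from 5.11 to 7.69 in the low one. RFA2 rose 5.35-fold with MMS (log2 2.42 ± 0.459, adjusted p = 0.00108), and it fell with NaCl (-1.32 ± 0.444, adjusted p = 0.0276). Against the same day it was higher by 0.17, 0.74 and 1.07 with bleomycin and by 0.51 and 0.98 with cisplatin. Neither agent passed the test for RFA2. Within the high class the MMS rise was 0.70 ± 0.146 (adjusted p = 0.000587), and with the class as a block in place of the day it was 0.85 ± 0.498 (adjusted p = 0.184). RFA2 was 1.10 ± 0.357 higher in the high class than in the low one in that fit (adjusted p = 0.0193). The NaCl fall was in replicates 2 and 3 (-2.13 and -2.10 against the same day) and not in replicate 1 (0.01).

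RFA3, the brightest of the 3, read 10.02, 9.96 and 9.88 with MMS, 10.01, 10.32 and 9.90 with bleomycin and 10.11 and 10.41 with cisplatin. The controls ran from 8.83 through 9.44 to 9.86, NaCl gave 9.54, 7.14 and 8.11, and ethanol 9.66 and 9.45. Every array of a DNA-damaging agent was above every other array, the lowest of them by 0.02 over the highest control. Against same-day controls the difference was 0.62 ± 0.441 for bleomycin (adjusted p = 0.718), 0.50 ± 0.464 for MMS (adjusted p = 0.386) and 1.05 ± 0.541 for cisplatin (adjusted p = 0.463), and none passed the test. Within the high class RFA3 rose with MMS by 0.58 ± 0.133 (adjusted p = 0.00117). RFA3 fell with NaCl (-1.20 ± 0.449, adjusted p = 0.0422), again in replicates 2 and 3 (-2.38 and -1.33) and not in replicate 1 (0.20).

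**Figure D2:**
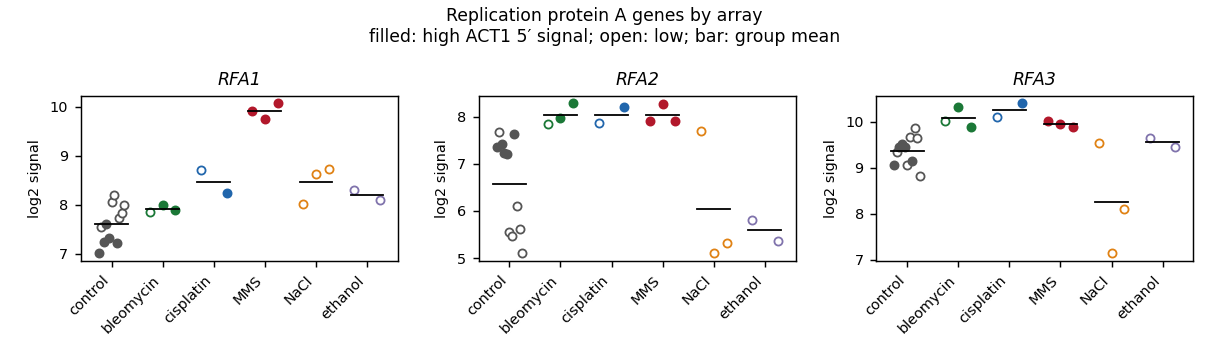
Log2 signal of RFA1, RFA2 and RFA3 in each of the 24 arrays by group, with filled points for the high ACT1 5′ class, open points for the low class and a bar at the group mean. RFA1 is highest in MMS, and RFA2 and RFA3 are high in all 8 arrays of DNA-damaging agents, by a narrow gap that RFA2 keeps on the quantile scale only.

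RFA2 and RFA3 were the only members of the 36 whose 8 DNA-damage arrays all lay above the 16 others, a pattern found in 1.1% of all tested genes and picked out after the values were seen. With median scaling and with the deposited values RFA3 kept it, while for RFA2 7 of the 8 arrays did. In the contrast of the 3 DNA-damaging agents with NaCl and ethanol, 2 members were higher and 2 lower (17.9% and 7.39% of all genes). RFA2 was 1.81 ± 0.432 higher (adjusted p = 0.011), RFA3 1.23 ± 0.437 (adjusted p = 0.0583) and RFA1 0.73 ± 0.261 (adjusted p = 0.0585). Without the low-3′ arrays RFA3 passed the test with bleomycin (0.61 ± 0.179, adjusted p = 0.0483), the only member to do so (5.86% of all genes rose and 5.03% fell in that fit). With cisplatin 3 members rose and 2 fell there (7.04% and 12.9% of all genes), among them RFA1 (1.26, adjusted p = 0.00403) and RFA3 (1.00, adjusted p = 0.00843).

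The MCM2 to MCM7 genes encode the 6 subunits of one helicase ring. With MMS they moved apart: MCM4, MCM5 and MCM6 rose and MCM7 fell, while MCM2 and MCM3 did not pass the test. MCM4 read 5.42, 5.81 and 5.60 with MMS, against controls from 4.11 through 4.71 to 4.89, and all other treated arrays lay between 4.14 and 4.82. MCM6 read 4.81, 5.03 and 4.81, against controls from 3.61 through 4.13 to 4.30. MCM7 read 4.63, 4.58 and 4.45, below the control range of 4.93 to 5.48. For each of these 3 genes the MMS arrays did not overlap the 11 controls. Over all genes, 28.7% had every MMS array above the controls and 13.2% had every one below.

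The MMS change was 1.17 ± 0.194 for MCM4 (2.25-fold, adjusted p = 0.000434), 0.93 ± 0.22 for MCM6 (adjusted p = 0.0043), 0.73 ± 0.259 for MCM5 (adjusted p = 0.0343) and -0.74 ± 0.184 for MCM7 (adjusted p = 0.00557). MCM2 was at 4.87, 5.14 and 5.15 with MMS, below all controls (5.34 to 5.82), with a change of -0.57 ± 0.265 (adjusted p = 0.0903). MCM3 was 0.73 ± 0.331 higher (adjusted p = 0.0855), and its MMS arrays (4.53 to 4.81) lay inside the control range of 3.60 to 5.11. Within the high ACT1 class MCM4 (0.92), MCM5 (0.73) and MCM6 (0.72) rose and MCM2 (-0.71) and MCM7 (-0.53) fell, with adjusted p from 2.76e-05 to 0.00124. The split between subunits was thus present there too, against control arrays of other days. The calls of MCM4 and MCM6 held when any of the 6 arrays was left out, that of MCM5 was lost without control replicate 9 or 11 or MMS replicate 2 or 3, and that of MCM7 without control replicate 9 or MMS replicate 3. Leaving out an MMS array or its same-day control removes the same pair, so those fits are not separate checks.

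Bleomycin moved no MCM gene past the test, with changes from -0.46 (MCM6) to 0.04 (MCM5). The difference between MMS and bleomycin was itself tested: MCM4 was 1.43 ± 0.268 higher with MMS (adjusted p = 0.00191) and MCM6 1.39 ± 0.304 higher (adjusted p = 0.00452). Cisplatin gave MCM3 -1.08 ± 0.386 (adjusted p = 0.265), which passed the test without the low-3′ arrays (-1.06, adjusted p = 0.00508).

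With ethanol 3 of the 6 ring genes read above every control, as did 16.8% of all genes. MCM2 read 6.39 and 6.44, MCM5 6.45 and 6.09, and MCM7 5.83 and 5.71, each pair above all 11 controls (highest 5.82, 5.70 and 5.48). None passed limma's test in 2 arrays: the changes were 0.95 ± 0.324 for MCM2 (adjusted p = 0.111), 1.08 ± 0.317 for MCM5 (adjusted p = 0.0739) and 0.53 ± 0.225 for MCM7 (adjusted p = 0.185). MCM7 was thus below the controls in the MMS arrays and above them in the ethanol arrays, and in the contrast of the DNA-damaging agents with NaCl and ethanol it was lower (-0.73 ± 0.173, adjusted p = 0.0108). That call was lost without control replicate 6 or ethanol replicate 1. Of the DNA-damaging agents only MMS passed the test for MCM7. Its same-day differences were -0.48, -0.11 and -0.07 with bleomycin and 0.16 and -0.28 with cisplatin. With NaCl MCM3 (-1.09 ± 0.32, adjusted p = 0.0162) and MCM5 (-0.74 ± 0.251, adjusted p = 0.0285) fell.

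**Figure D3:**
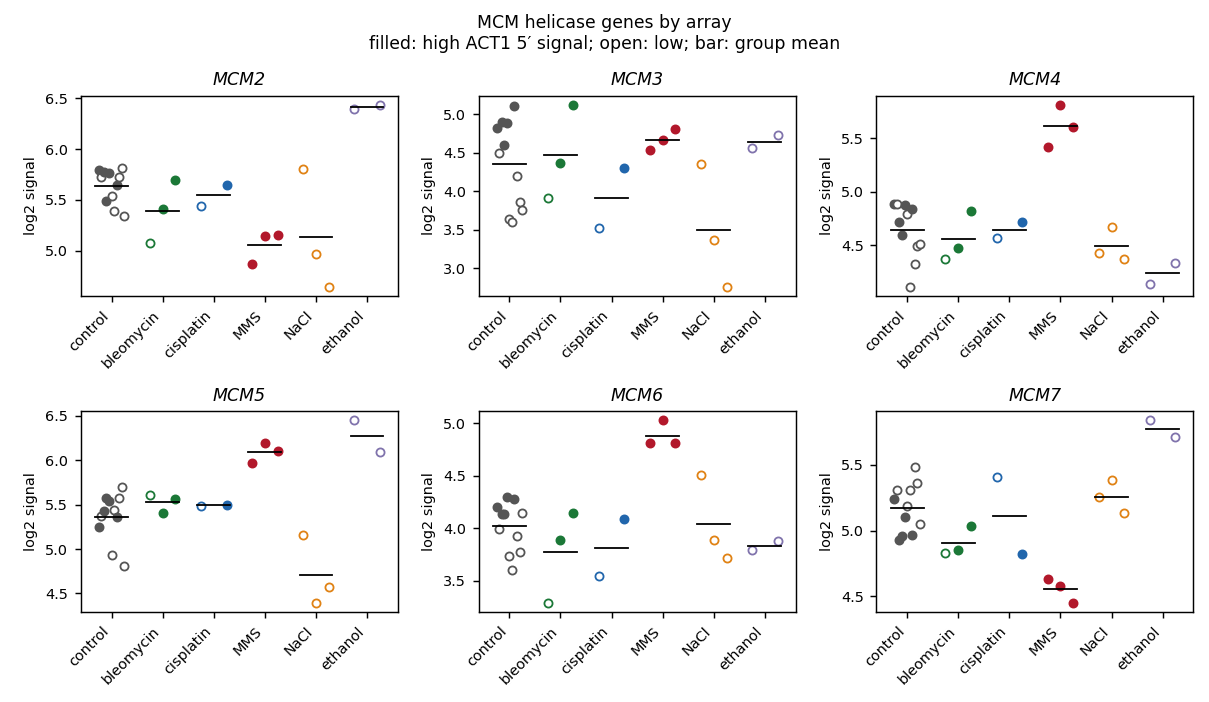
Log2 signal of the 6 MCM helicase genes in each of the 24 arrays by group, with filled points for the high ACT1 5′ class, open points for the low class and a bar at the group mean; each panel has its own scale. MCM4, MCM5 and MCM6 are above the controls in MMS, and MCM2 and MCM7 are below them in MMS and above them in ethanol.

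The factors that load and activate the ring did not move as one. MCM10, which activates the assembled helicase, read 3.56, 3.53 and 3.47 with MMS and fell (-1.20 ± 0.261, adjusted p = 0.0026), against controls from 3.58 through 3.96 to 5.06. MCM10 also differed by class, the high one being lower (-0.66 ± 0.169, adjusted p = 0.00496), and within the high class the MMS change was -0.36 ± 0.118 (adjusted p = 0.013). MCM10 read 3.69 and 3.53 with ethanol (-1.14 ± 0.32, adjusted p = 0.0639), and it rose with NaCl (0.73 ± 0.253, adjusted p = 0.0309). CDC45, whose product rides with MCM and GINS, changed by -0.07 with MMS (adjusted p = 0.877) and 0.88 with ethanol (adjusted p = 0.215), and both ethanol arrays (7.21 and 7.05) were above all controls (at most 6.72). CDC6, the loading ATPase, was dim everywhere (2.14 to 3.69 in controls), and with no filter it was 0.84 ± 0.215 higher with MMS (adjusted p = 0.00653). Its MMS arrays (2.98, 3.23 and 3.20) lay inside the range of the high-class controls, 2.56 to 3.69.

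Of the ORC subunits, ORC2 and ORC3 rose with MMS and fell with NaCl, and ORC1, ORC4 and ORC5 passed the test with no agent in the same-day fit. ORC3 read 5.96, 5.72 and 6.0 with MMS against controls from 3.53 through 5.03 to 5.56, and it rose 2.58-fold (1.37 ± 0.373, adjusted p = 0.00951). ORC2 rose by 0.85 ± 0.317 (adjusted p = 0.041), with MMS arrays of 5.17 to 5.37 inside the control range of 3.86 to 5.48. Within the high class ORC3 rose by 0.68 ± 0.17 (adjusted p = 0.00213), and ORC2 did not pass the test there. ORC4 read 6.90, 6.85 and 7.04 with MMS, inside the control range of 6.11 to 7.22, and rose within the high class (0.77 ± 0.121, adjusted p = 4.27e-05), where the same-day change was 0.23 ± 0.324 (adjusted p = 0.572). ORC3 was 5.70 and 5.62 with ethanol, also above every control, with a change of 1.30 ± 0.457 (adjusted p = 0.118). ORC5 was the steadiest member over the controls (SD 0.117) and stood at 5.40 and 5.49 with ethanol, above the highest control of 5.11. ORC6, below the filter, changed by 0.02 with MMS (adjusted p = 0.921, no filter).

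GINS, the tetramer of Sld5, Psf1, Psf2 and Psf3, had the third largest MMS rise in PSF2. PSF2 read 5.57, 5.92 and 5.94 with MMS, against controls from 3.45 through 4.57 to 5.40, and it rose 3.80-fold (1.93 ± 0.272, adjusted p = 0.000139). PSF2 also differed by class (0.87 ± 0.2, adjusted p = 0.00244), and within the high class its MMS rise was 0.85 ± 0.208 (adjusted p = 0.00185), so the value depends on which controls it is set against. PSF1 read 5.74, 6.17 and 6.28, above all controls (at most 5.52), and rose by 0.57 ± 0.191 (adjusted p = 0.0274), or 1.06 ± 0.16 within the high class (adjusted p = 2.74e-05). PSF3 was -0.79 ± 0.341 with MMS (adjusted p = 0.0736) and 1.19 ± 0.398 with cisplatin (adjusted p = 0.24), and the cisplatin value passed the test without the low-3′ arrays (1.27, adjusted p = 0.00404). SLD5 passed the test with no agent.

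In DNA polymerase alpha-primase, the primase large subunit PRI2 rose with MMS and the catalytic subunit POL1 did not. PRI2 read 7.08, 6.83 and 6.91 against controls from 4.90 through 6.01 to 6.63, a change of 1.05 ± 0.356 (adjusted p = 0.0274) that was 1.06 ± 0.128 within the high class (adjusted p = 2.48e-06). POL1 read 5.54, 5.39 and 5.49, with a change of -0.62 ± 0.358 (adjusted p = 0.171), and within the high class it fell (-0.87 ± 0.129, adjusted p = 2.17e-05). The same-day call of PRI2 was lost without control replicate 10 or 11 or MMS replicate 1 or 2 (0.61 to 1.45). PRI1, the primase catalytic subunit, changed by -0.21 with MMS (adjusted p = 0.38). POL12, the regulatory B subunit, rose with NaCl (1.27 ± 0.295, adjusted p = 0.00633), on 6.81, 8.02 and 8.06 against controls from 5.94 to 7.36. With MMS it was at -0.16 in the same-day fit (adjusted p = 0.675), and it rose within the high class (0.51 ± 0.114, adjusted p = 0.000978).

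Among the subunits of polymerases delta and epsilon, POL3, the catalytic subunit of delta, rose with MMS by 0.49 ± 0.182 (adjusted p = 0.039) and lost the call within the high class. DPB3, a histone-fold subunit of epsilon, read 7.56, 7.41 and 7.44 with MMS, above all controls (at most 7.34), with a change of 0.41 ± 0.409 against the same day (adjusted p = 0.429) and 0.90 ± 0.147 within the high class (adjusted p = 5.88e-05). With NaCl it read 6.43, 4.20 and 4.64 and fell (-1.60 ± 0.396, adjusted p = 0.00822). DPB2, the essential second subunit of epsilon, rose with NaCl (1.02 ± 0.222, adjusted p = 0.00484). POL2, the catalytic subunit of epsilon, passed the test with no agent in the same-day fit, and its probe sets disagreed: with NaCl the brightest gave -0.55 and the next 1.52, so no direction is given for it.

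RFC1 to RFC5 form the clamp loader. With MMS RFC3 (0.82 ± 0.239, adjusted p = 0.0137) and RFC1, the large subunit (0.81 ± 0.305, adjusted p = 0.0431), rose, and RFC2, RFC4 and RFC5 did not pass the test. RFC3 read 6.68, 6.54 and 6.59 against controls from 5.05 through 6.08 to 6.29, and within the high class it rose by 0.54 (adjusted p = 0.00112), while RFC1 did not pass the test. RFC4 rose there by 0.44 ± 0.126 (adjusted p = 0.0056). RFC4 was the single member to rise with ethanol (1.25 ± 0.283, adjusted p = 0.0294). Its ethanol arrays read 5.13 and 4.33, inside or just above the control range of 2.61 to 5.01, and the lowest control, replicate 7, was that of the second array, and the call was lost without that control or without ethanol replicate 2. CDC9, the ligase, passed the test with no agent and changed by at most 0.40 in size.

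**Figure D4:**
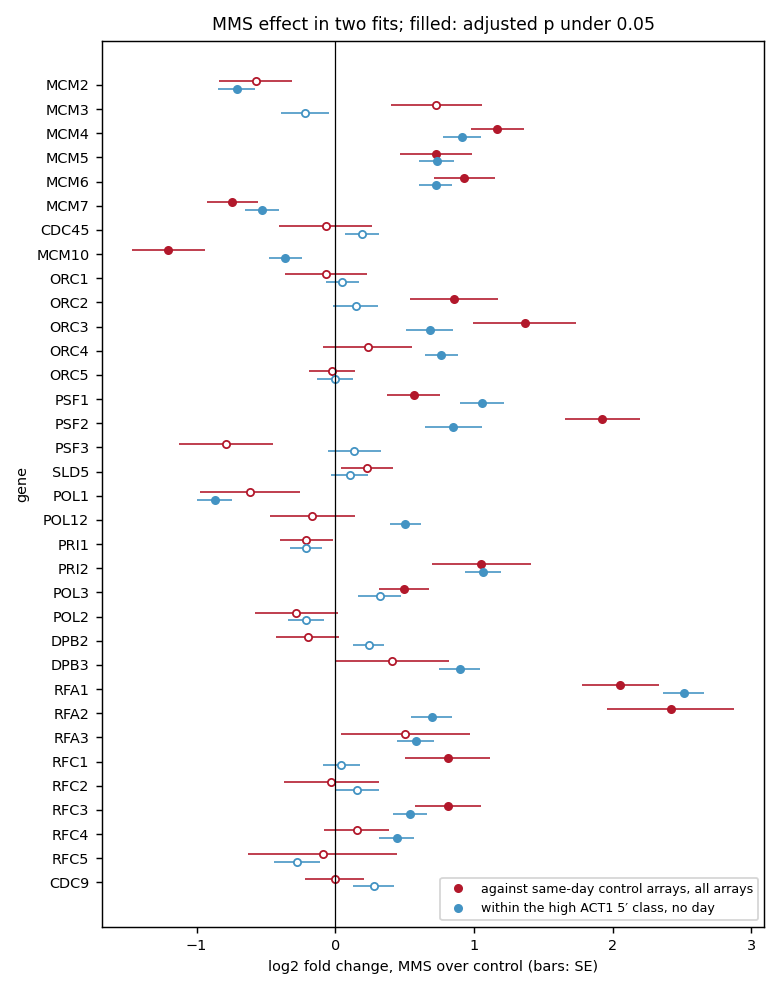
Log2 fold change of the 34 tested genes with MMS (points) and its standard error (bars) in the fit with same-day controls (red) and within the high ACT1 5′ class (blue), filled where the adjusted p was under 0.05. RFA1, PRI2, MCM4, MCM5 and MCM6 are at like values in both, while RFA2, PSF2, ORC3 and MCM10 are closer to 0 in the blue fit.

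For MMS, the 13 rises and 2 falls thus rest on same-day controls that were all of the low class. Control replicate 11, the partner of MMS replicate 2, is also a low-3′ array. Against the control of the day, 5, 12 and 5 of the 36 members were higher by 1 or more in MMS replicates 1, 2 and 3. All tested genes had medians of 0.18, 0.60 and 0.16 in those arrays. Without the low-3′ arrays 11 members rose and 6 fell with MMS (37% and 25.9% of all genes). The calls of MCM5, POL3 and RFC1 were lost there. Within the high class, whose control arrays were of other days, 15 members rose and 4 fell (39.5% and 31.2% of all genes). Of the 15 calls from the same-day fit, 12 were among them. With the class as a block 8 rose and 2 fell (24.7% and 15.4%), sharing 9. RFA1, MCM4 and PSF2 kept their call without any 1 of the 6 arrays and under every other alternative that tested them, MCM4 and PSF2 being below the filter at the 40th percentile. MCM6, MCM10 and RFA2 also kept their call without any 1 of the 6 arrays. MCM6 lost it at a minimum of 2-fold, and MCM10 and RFA2 lost it with the class as a block. The remaining MMS calls were lost when certain pairs of an MMS array and its control were broken. Those of RFC1 (0.34 to 1.11 over the 6 fits that leave out 1 array), PSF1 (0.46 to 0.71) and POL3 (0.38 to 0.63) were lost without control replicate 9 or 11 or MMS replicate 2 or 3. That of ORC2 (0.54 to 1.14) was lost without control replicate 10 or 11 or MMS replicate 1 or 2, that of ORC3 (0.94 to 1.61) without control replicate 11 or MMS replicate 2, and that of RFC3 (0.59 to 1.07) without control replicate 9 or 10 or MMS replicate 1 or 3. Between MMS and bleomycin 8 members were higher with MMS and 1 lower (26.1% and 10.4% of all genes). MCM4, MCM6, PSF2 and RFA1 kept that call without any 1 of the 12 arrays, while RFA2, 1.91 ± 0.632 higher (adjusted p = 0.0342), was at -0.10 within the high class (adjusted p = 0.651).

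With NaCl the 3 arrays were unlike. Replicate 1 differed from its control by a median of -0.03 over the 36 members, from -0.46 (MCM4) to 1.10 (PRI2), and 0 members were lower by 1 or more. All tested genes had a median of -0.09 in that array, with 9.51% lower by 1 or more. Replicates 2 and 3, both low-3′ arrays, had medians of -0.39 and -0.49, with 10 and 14 of the 36 members lower by 1 or more. All tested genes had medians of -0.57 and -0.73 there, and 37.9% and 43.2% of them were lower by 1 or more. RFC5 is the deepest example: it read 6.53 in replicate 1 and 4.12 and 3.43 in the others, against controls from 5.17 to 7.15, and fell (-1.85 ± 0.517, adjusted p = 0.0132). RFC2 (-1.31 ± 0.332, adjusted p = 0.00896), ORC2 (-1.18 ± 0.307, adjusted p = 0.00977), ORC3 (-1.04 ± 0.361, adjusted p = 0.0313) and PSF2 (-0.95 ± 0.264, adjusted p = 0.0129) followed that split. No member had all 3 NaCl arrays above the control range, and none had all 3 below it (2.17% and 5.22% of all genes).

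Without the low-3′ arrays, which leaves NaCl replicate 1 alone, none of the 14 NaCl calls remained. When 1 of the 6 arrays was left out in turn, the call of DPB2 held throughout, and the other 13 were each lost without control replicate 3, without NaCl replicate 2 and without NaCl replicate 3. Without the low-3′ arrays CDC45 (1.22, adjusted p = 0.01) and PRI2 (1.21, adjusted p = 0.0161) rose and none fell (7.02% and 9.63% of all genes). Within the low ACT1 5′ class DPB3 alone fell and none rose (-1.60, adjusted p = 0.0347; 6.07% of all genes fell and 1.45% rose). The level of the low-3′ arrays and the effect of NaCl in replicates 2 and 3 cannot be told apart. On the deposited values without further normalization, 7 members rose and 8 fell with NaCl, where 4 rose and 10 fell after quantile normalization. The median change of all genes with NaCl was then -0.31, against -0.45.

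**Figure D5:**
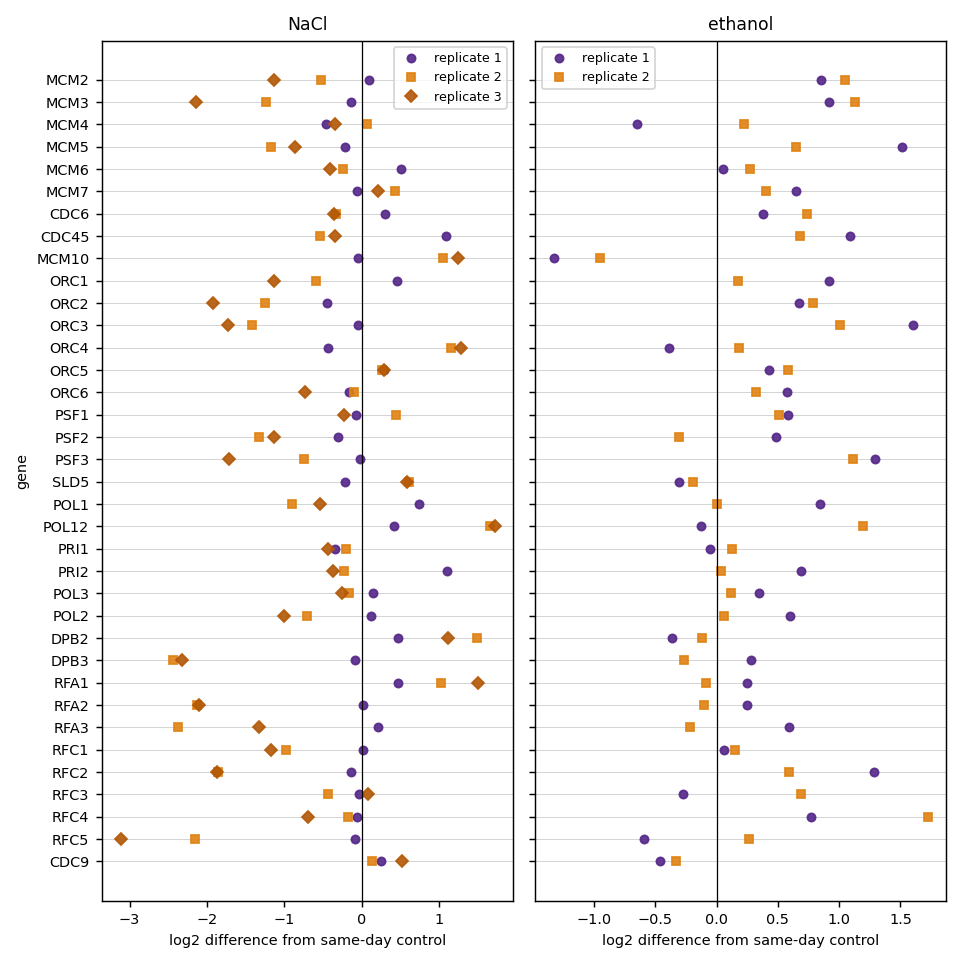
Log2 difference of each NaCl array (left) and each ethanol array (right) from the control array of its day, 1 row per gene, with 1 marker per replicate. NaCl replicate 1 stays near 0 for most genes, while replicates 2 and 3 reach -3.11 for RFC5, and most genes are above 0 in both ethanol arrays.

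With ethanol 27 of the 34 tested members (79.4%) had a positive change, against 58.3% of all genes. 11 members (32.4%) had an unadjusted p under 0.05, against 23.9% of all genes, and the median change was 0.28 against 0.14. 8 members had both ethanol arrays above all 11 controls, MCM2, MCM5, MCM7, CDC45, ORC3, ORC5, PSF1 and RFC2, and SLD5 was below them (16.8% and 9.44% of all genes). Without the low-3′ arrays, none of which is an ethanol array, 13 members rose and 1 fell (26.7% and 16% of all genes). Among them were MCM2 (0.98), MCM3 (1.05), MCM5 (1.12), ORC3 (1.35), PSF3 (1.25), RFC2 (0.97) and, falling, MCM10 (-1.17). Within the low class, with 2 ethanol arrays against 6 controls, none passed the test (0.773% and 0.445% of all genes). Set against NaCl, ethanol was higher in 8 members and lower in 2 (26.4% and 9.69%), led by ORC3 (2.35), RFC2 (2.25) and MCM3 (2.11), and these differences carry the low-3′ NaCl arrays.

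44 further genes tied to replication were listed by role, and 35 of them were tested. With MMS 7 rose and 10 fell, against 33.6% and 17% of all genes. TAH11, whose product Cdt1 delivers MCM to origins, rose by 2.54 ± 0.242 (adjusted p = 9.6e-06). It read 7.30, 7.15 and 7.45 against a highest control of 5.32. DCC1, of the alternative clamp loader for cohesion, rose by 2.18 ± 0.176 (adjusted p = 3.05e-06), and CAC2, of the chromatin assembly complex CAF-1, by 2.02 ± 0.231 (adjusted p = 3.22e-05). RNH203, of ribonuclease H2, fell (-2.74 ± 0.258, adjusted p = 9.16e-06). These 4 changes had the same sign and passed the test within the high class (2.60, 1.79, 2.01 and -2.11).

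Of 8 tested regulators of the G1 to S transition, 6 fell and 1 rose with MMS (17% and 33.6% of all genes). These calls are against same-day controls of the low ACT1 class. NRM1, a co-repressor of the G1 gene set that contains many replication genes, fell (-1.85 ± 0.194, adjusted p = 1.7e-05). The G1 cyclin CLN1 read 4.13, 4.19 and 4.15, against controls from 5.50 to 6.23, and fell (-1.80 ± 0.226, adjusted p = 6.24e-05). The S-phase cyclin CLB5 fell (-1.26 ± 0.276, adjusted p = 0.00264) and CLN2 fell too (-0.57 ± 0.223, adjusted p = 0.0494), while RFA1, PSF2 and MCM4 rose in the same arrays. The histone gene HTB2 fell with bleomycin (-2.22 ± 0.33, adjusted p = 0.00504), an agent with which no member passed the test, and its call was lost without the day block (-1.29, adjusted p = 0.336). HTB1, which encodes the same type of histone, was at -0.92 with bleomycin (adjusted p = 0.605). With MMS HTB2 was at -0.70 in the same-day fit (adjusted p = 0.111) and fell within the high class (-3.12, adjusted p = 2.2e-10). HTB1 passed the test with MMS in neither fit (0.02, adjusted p = 0.975, and -0.18, adjusted p = 0.254). With cisplatin HTB1 was at -0.39 (adjusted p = 0.849). Without the low-3′ arrays HTB1 fell with bleomycin (-0.79, adjusted p = 0.0452) and with MMS (-0.73, adjusted p = 0.0416). HTB2 with MMS did not pass the test there (-0.32, adjusted p = 0.317). With cisplatin HTB2 was at -1.90 (adjusted p = 0.0767) and passed the test without the low-3′ arrays (-1.90, adjusted p = 0.000898). HTB2 was 1.44 higher in the high class than in the low one (adjusted p = 0.00338). HTB2 also fell with NaCl in the same-day fit (-0.96, adjusted p = 0.0324). That fall was in the low-3′ replicates 2 and 3 (-1.04 and -1.67) and not in replicate 1 (-0.04). Within the low class the NaCl change of HTB2 was 0.69 (adjusted p = 0.345). HTB1 was at -1.12 with NaCl in the same-day fit (adjusted p = 0.0855).

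With NaCl 9 of the 35 rose and 4 fell (13.9% and 37.8% of all genes), led by the histone chaperone ASF1 (2.04 ± 0.417, adjusted p = 0.00382) and by DUT1, which removes dUTP (-2.32 ± 0.648, adjusted p = 0.0131). ASF1 read 6.74, 9.13 and 8.96, so its rise too was in the low-3′ arrays. With ethanol the kinase gene CDC7 alone rose (1.14 ± 0.297, adjusted p = 0.048; 3.89% of all genes rose and 1.22% fell), and with bleomycin and cisplatin none of the 35 passed the test.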

How the data were processed

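The deposited table held 1 value per probe set and array on the log2 scale, as its range of 1.42 to 14.4 shows; per the labels' protocols, poly(A)+ RNA was copied with an oligo(dT) primer and labelled by in vitro transcription, while how the authors summarised and normalized them is not given in the sources used here. No scanner file was read. Array medians ran from 5.33 to 5.63, and 0 columns were identical. The number of arrays limits the precision.

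Of 9335 probe sets, 60 were controls, 6504 had 1 gene, 328 several and 2443 none in the given annotation. The brightest probe set on average stood for each of 5656 genes, and those with a mean above the pooled 20th percentile (3.79) were tested, 5172 in all. Values were quantile-normalized and fitted with limma 3.58.1 in R 4.3.3 over all 24 arrays, with agent and day terms (8 residual degrees of freedom) and a trended eBayes (prior 3.8). The procedure was also run on simulated arrays with independent normal spread, which cannot show how the state of the RNA affects the calls. Plots were made in matplotlib 3.10.9 under Python 3.11.15. Pairs of arrays by day come from the titles; of 13 pairs, the correlation of deviations from group means lay above 0.1 in 6 and below -0.1 in 5 (-0.566 to 0.68).

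The members, the other gene lists, the ACT1 limits and the tests were chosen with earlier results of these data known. All members are accounted for. Of the other lists, called genes could be named, at most 3 each way per comparison, besides CLN2, CLB5 and the histones. Fits within an ACT1 class were added after the data were seen. A planned description of promoter motifs was not run, and no sequence was used here.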

Additional observations from a re-analysis of the deposited data

How the results depend on the processing

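The counts of members called were recomputed under each alternative, 1 choice at a time, and the cause of a change was not tested unless its construction shows it. RFA1, MCM4 and PSF2 with MMS kept their calls wherever they were tested. Without the replicate block the count was 5 for MMS against bleomycin (9 with it), 9 for the damaging agents against NaCl and ethanol (4) and 5 for ethanol (1); it was within 1.5 times for the other comparisons. Day as a random block (correlation 0.0408) gave 5, 8 and 5. The ACT1 class as a block gave 9 for NaCl (14) and 6 for ethanol. Without the low-3′ arrays it was 1 for bleomycin, 5 for cisplatin, 2 for NaCl, 14 for ethanol, 8 for the damaging agents, 15 for MMS against bleomycin and 4 for ethanol against NaCl (10). Fits within a class, added after the data were seen, gave 18 for MMS against bleomycin, 1 for NaCl, 0 for ethanol and 1 for ethanol against NaCl; bleomycin and cisplatin have arrays in both classes and were not fitted so against control. Only the arrays compared, with fewer arrays in the fit, gave 0 for NaCl, 10 for ethanol and 0 for ethanol against NaCl. A filter at the 40th percentile, which tests fewer genes, gave 8 for MMS (15), 0 for ethanol, 3 for MMS against bleomycin and 6 for ethanol against NaCl. A minimum of 2-fold gave 7 for MMS and 1 for the damaging agents. Median scaling gave 3 and the deposited values 2 for ethanol, and ethanol replicate 1 on a day of its own gave 1 for ethanol against NaCl. The deposited values split MMS against bleomycin 9 higher to 3 lower (8 to 1) and ethanol against NaCl 8 to 4 (8 to 2), and median scaling moved the all-gene median for MMS from 0.30 to 0.40.

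Leaving out each array in turn gave 0 to 0 members for bleomycin and cisplatin, 8 to 12 for MMS, 1 to 22 for NaCl, 0 to 1 for ethanol, 1 to 12 for the damaging agents, 4 to 9 for MMS against bleomycin and 0 to 24 for ethanol against NaCl; the highest NaCl counts came without NaCl replicate 1. Where 1 array of an agent is left, it is assumed to vary like the other groups. With the day as a block, leaving out an MMS array or its same-day control was the same check. 11 of 53 called results held without any 1 array. Signs reversed as follows, counting only members called in the same-day fit or in the alternative. For NaCl on deposited values, MCM6 was 0.44 and POL3 0.43. Without the low-3′ arrays, NaCl gave MCM3 0.040, MCM10 -0.081, ORC3 0.14, RFA2 0.25 and RFA3 0.18, and within the low class RFA2 0.11. RFA2 in MMS against bleomycin was -0.0077 with no replicate block, -0.38 with the class and -0.10 within the high class. POL12 within the high class was 0.51 with MMS and 0.51 against bleomycin. The POL2 probe set second in brightness gave 1.52 for NaCl and -2.44 for ethanol against NaCl. Signals near background limit CDC6 and ORC6.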
